A study of Mus musculus with 4 samples.

Results

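Trp53 and 9 genes that p53 activates directly (Cdkn1a, Mdm2, Bax, Bbc3, Pmaip1, Ccng1, Zmat3, Trp53inp1 and Phlda3) were followed through 4 mouse mammary tumors. The genes were taken by name, as 10 of the 23746 gene rows in the tables, and all 10 passed the expression filter and entered the test of 12752 genes. The tumors came from females of 2 genotypes: triple-mutant WapCreC;Rank;Brca1;p53, written WapCre;Rank;Brca1;p53 in the labels (tumors 26043 and 26044) and double-mutant WapCreC;Brca1;p53 (tumors 26048 and 26050). The comparison asks how primary tumors that formed without Rank, the receptor for RANKL, differ in their transcripts from tumors that formed with it.

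Every tumor carried the WapCreC transgene and conditional Brca1 and p53 alleles, so p53 was targeted in both genotypes and no tumor or gland with intact p53 was analysed here. The alleles are Brca1tm2Cxd and Trp53tm1Elee, and the triple-mutant females also carried a floxed Rank allele. Cre under the Wap promoter is active in luminal and basal mammary epithelial cells of this line, so the stromal, vascular and immune cells of a tumor keep p53 and their RNA is part of each sample. The females of the genotypes were littermates, but which tumors shared a litter is not given, nor is the age of the animals. No grade is given for the individual tumors, and the study describes triple-mutant tumors as intermediate grade and double-mutant tumors as intermediate or high grade, so grade and Rank genotype cannot be told apart here. Values are FPKM, fragment counts scaled to transcript length and to the mapped total of the library, 1 value per gene and tumor. The depth of each library is unknown, and 12150 to 12681 genes reached 1 FPKM.

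p53 is a transcription factor that is kept scarce by its own target Mdm2, a ubiquitin ligase that marks it for degradation. DNA damage and oncogenic stress release p53 from this control, and it then binds a repeated consensus element near genes that halt the cell cycle, start mitochondrial apoptosis or repair DNA. Loss of p53 is common in breast cancers that lack BRCA1, in which DNA breaks accumulate.

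Matches to the p53 consensus are shown first. The full element consists of paired copies of a 10-base sequence. A single copy, the p53 consensus decamer, was searched in the 250 bases before each annotated start in the RefSeq promoter windows (GRCm38.p6). A match is therefore not a full element. The decamer reads alike on both strands. Windows were present for 7 of the 10 genes, Trp53 among them, and 5 of these 7 held at least 1 match, against 8.2% of the 27025 genes in the table. The target genes were chosen by name as p53 targets, so this count is a description and not a test. Each stretch below runs 5′ to 3′ on the strand of its gene, with the matching decamer in capitals and 20 bases on either side.
Cdkn1a, chr17:29090886-29090957, plus strand: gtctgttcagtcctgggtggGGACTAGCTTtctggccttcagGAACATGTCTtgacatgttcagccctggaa
Mdm2, chr10:117710915-117710964, minus strand: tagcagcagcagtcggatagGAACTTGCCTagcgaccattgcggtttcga
Bax, chr7:45467070-45467119, minus strand: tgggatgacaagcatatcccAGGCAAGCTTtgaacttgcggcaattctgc
Ccng1, chr11:40755442-40755491, minus strand: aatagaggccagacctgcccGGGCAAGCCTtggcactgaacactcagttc
Trp53, chr11:69580264-69580313, plus strand: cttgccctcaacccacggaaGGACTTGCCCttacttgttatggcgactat

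Cdkn1a had windows at 2 annotated starts. The window at chr17:29090729-29091028 held 2 matches, which began 73 and 51 bases before its start, and that at chr17:29093519-29093818 held none. Of all 32851 windows, 0.259% held 2 or more. The match began 186 bases before the start in Mdm2, 201 in Bax, 185 in Ccng1 and 75 in Trp53 itself. The windows of Phlda3 and Bbc3 held no match, which says only that these letters do not occur in them. A match is a description of the sequence, and no binding was measured. The 5 genes with a match were highest in different tumors by FPKM: Cdkn1a in 26043, Bax in 26044, Trp53 in 26048, and Mdm2 and Ccng1 in 26050. From interval midpoints Mdm2 was about as high in tumor 26044 as in tumor 26050.

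The 10 genes did not move together between the genotypes. Phlda3 had its higher values in the triple-mutant pair, by a ratio of means of 8.37, and Trp53 and Ccng1 had theirs in the double-mutant pair. In the other 7 genes the genotypes overlapped. None of the 10 passed the threshold of an adjusted p of 0.05 (limma on log2(FPKM + 1), Benjamini-Hochberg adjustment), nor did any of the 12752 genes tested (0.0%). At an unadjusted p under 0.05 the count was 1 of the 10 (Phlda3) and 1252 of 12752 (9.82%). The share with separate genotypes was 1 of 10 toward triple-mutant against 21.3% of all genes, and 2 of 10 toward double-mutant against 22.9% (in either direction 3 of 10 against 44.3%). The median log2 fold change, triple-mutant minus double-mutant, was 0.04 over the 10 genes and -0.02 over all genes tested.

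**Figure D1:**
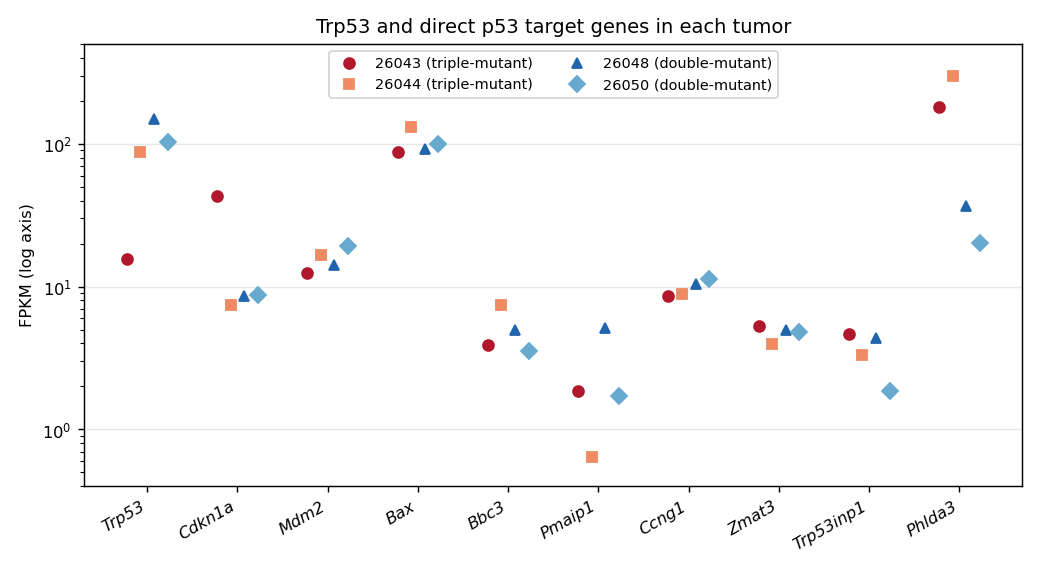
FPKM on a log axis of Trp53 and 9 direct p53 targets in the 4 tumors, 1 symbol per tumor, red and orange for triple-mutant and blue for double-mutant. Phlda3 separates the genotypes, at 180 and 297 against 36.6 and 20.4 FPKM, while tumor 26043 stands apart in Trp53 (15.7 FPKM) and in Cdkn1a (42.8 FPKM).

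An exact permutation test of 2 against 2 tumors cannot go below p = 0.33, so all p-values below are from the limma fit over all genes. They weigh the genotype difference against the spread between tumors of the same genotype, which limma moderates with the spread of all genes tested. The labels do not state that each tumor came from a separate animal. Fold changes on the log2(FPKM + 1) scale understate the differences of genes near or below 1 FPKM. In bulk tumor RNA, fewer cells of a type and less RNA per cell cannot be told apart.

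Trp53 (chr11:69580359-69591873) encodes p53 itself and was the targeted gene in both genotypes. It was measured at 15.7 FPKM in tumor 26043 and 87.8 FPKM in tumor 26044, the triple-mutant tumors, and at 150 FPKM in tumor 26048 and 103 FPKM in tumor 26050, the double-mutant tumors. Both double-mutant tumors lay above both triple-mutant tumors, and tumor 26043 lay 5.60-fold below the next lowest. The genotype means were 51.7 ± 51.0 and 126 ± 33.0 FPKM (SD, n = 2 each). The difference was -1.70 log2 units (SE 0.85, adjusted p = 0.575, limma), with a 95% interval from -3.97 to 0.56. Without tumor 26043 it was -0.50, and without tumor 26044 it was -2.91, so its size rested mostly on tumor 26043.

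Trp53 transcript was abundant in 3 of the 4 tumors, above 91.2%, 94.9% and 92.4% of the genes tested in tumors 26044, 26048 and 26050, and above 56.8% in tumor 26043. The value sums reads over the whole gene, so it does not tell a transcript that lacks the floxed exons from an intact transcript, nor a tumor cell from a cell without Cre. The intervals that Cufflinks gives for its own estimate, 14.1 to 17.2 FPKM in tumor 26043 and 83.2 to 92.3 FPKM in tumor 26044, did not meet. The 2.41 log2 units between these tumors of the same genotype exceeded the within-genotype gap of 95.8% of all genes. GENCODE lists a processed pseudogene of Trp53 on chromosome 17 that has no row in the tables, and how reads that match both were placed is not given in the sources used here.

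The low value of tumor 26043 was not shared by the genes around Trp53. The 75 tested genes within 1 Mb of it had a median of 0.00 in tumor 26043, in log2 units around each gene's mean over the 4 tumors, where Trp53 itself stood at -2.06. In tumors 26044, 26048 and 26050 the neighbours stood at 0.07, 0.06 and -0.13, and Trp53 at 0.35, 1.12 and 0.58. By root mean square difference of these centred values over the 4 tumors, the genes most like Trp53 were Egln3, a prolyl hydroxylase of hypoxia-inducible factor (0.256), Fxyd6, a regulator of the sodium pump (0.277), and Serpina3n, a serine protease inhibitor (0.318). Egln3 stood at 15.0, 52.4, 133 and 84.4 FPKM in tumors 26043, 26044, 26048 and 26050.

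Cdkn1a (chr17:29090986-29100722) encodes p21, the inhibitor of cyclin-dependent kinases through which p53 halts the cell cycle, and its upstream region holds both decamers printed above. Its level was 42.8 FPKM in triple-mutant tumor 26043, 7.39 FPKM in triple-mutant tumor 26044, 8.64 FPKM in double-mutant tumor 26048 and 8.71 FPKM in double-mutant tumor 26050. A single tumor was high, 4.91-fold above the next, and the other triple-mutant tumor was the lowest of all, so the genotypes overlapped. The double-mutant tumors differed from each other by 0.01 log2 units and the triple-mutant tumors by 2.38, more than in 95.6% of genes. The genotype difference was 0.99 (SE 0.84, adjusted p = 0.712, limma), and it turned to -0.21 without tumor 26043.

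Tumor 26043 thus held both the lowest Trp53 and the highest Cdkn1a of the series. The Cufflinks intervals of Cdkn1a, 40.4 to 45.3 FPKM in tumor 26043 against 6.56 to 8.22, 7.73 to 9.56 and 7.81 to 9.62 FPKM in the other tumors, were far apart. The 26 tested neighbours of Cdkn1a had a median of 0.33 in tumor 26043, against 1.69 for Cdkn1a. Of the 10 genes, 3 were highest and 4 lowest in tumor 26043, where 27.9% of all genes tested were highest and 15.2% lowest. The counts were 3 highest and 3 lowest in tumor 26044 (24.2% and 39.0% of all genes), 2 and 0 in tumor 26048 (23.2% and 17.6%), and 2 and 3 in tumor 26050 (24.7% and 28.2%). The summed level of the 7 luminal epithelial markers was 4418 FPKM in tumor 26043, 537 in tumor 26044, 2876 in tumor 26048 and 2686 in tumor 26050. The sum of tumor 26043 rested on Cldn3 (1237 FPKM, 2.99 times its interval midpoint) and Krt19 (1154 FPKM). Of the 7 markers, 4 (Krt8, Krt18, Epcam and Cldn7) were higher in both double-mutant tumors (22.9% of all genes tested). Krt19 alone was higher in both triple-mutant tumors (21.3% of all genes tested). The part of tumor composition in the Trp53 and Cdkn1a values was not tested.

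Mdm2 (chr10:117688905-117710716), the ubiquitin ligase that limits p53 and is itself a target, was read at 12.5 and 16.8 FPKM in triple-mutant tumors 26043 and 26044 and at 14.1 and 19.3 FPKM in double-mutant tumors 26048 and 26050. The values alternated between the genotypes, and the highest exceeded the lowest 1.54-fold. In every tumor the FPKM lay below its Cufflinks interval, at 0.72 to 0.85 times the midpoint. The midpoints were 15.9, 23.4, 16.7 and 23.4 FPKM in tumors 26043, 26044, 26048 and 26050, and no longer alternated. The difference in FPKM of -0.17 (SE 0.33, adjusted p = 0.875, limma) had a 95% interval from -1.06 to 0.71, and its sign turned without tumor 26043 (0.021) or without tumor 26050 (0.038). From midpoints the difference was -0.029. Tumor 26043 was the lowest in both Mdm2 and Trp53, of which Trp53 spanned 9.55-fold.

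Ccng1 (chr11:40748552-40755286) encodes cyclin G1, which brings a phosphatase to Mdm2. It was at 8.53 FPKM in tumor 26043 and 8.85 FPKM in tumor 26044, both triple-mutant, and at 10.4 FPKM in tumor 26048 and 11.2 FPKM in tumor 26050, both double-mutant. The genotypes did not overlap, but by a ratio of means of only 1.25, and the tumors of each genotype were close. The difference was -0.29 (SE 0.29, adjusted p = 0.754, limma), and leaving out any tumor gave -0.34 to -0.24. Taken from the midpoint of the Cufflinks interval in place of the FPKM, the values were 13.1, 15.9, 14.2 and 16.3 in tumors 26043, 26044, 26048 and 26050, and the genotypes overlapped.

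The genotypes overlapped in all 3 apoptosis genes, which differed widely in level. Bax (chr7:45461695-45466898), which opens pores in the outer mitochondrial membrane, was the most abundant, at 88.2 FPKM in tumor 26043, 130 FPKM in tumor 26044, 91.3 FPKM in tumor 26048 and 100.5 FPKM in tumor 26050. The tumors lay within 1.48-fold of each other, and Bax was above 91.2% to 94.1% of the genes tested in each. Its FPKM was 1.66 to 1.92 times the midpoint of its Cufflinks interval, and the midpoints were 47.6, 67.7, 55.1 and 57.9 FPKM in tumors 26043, 26044, 26048 and 26050. The difference was 0.16 (SE 0.31, adjusted p = 0.879, limma), with a 95% interval from -0.66 to 0.98, and it was -0.12 without tumor 26044.

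Bbc3 (chr7:16309583-16318334) encodes PUMA, a BH3-only protein that frees Bax from its inhibitors. It was at 3.92 and 7.41 FPKM in triple-mutant tumors 26043 and 26044 and at 4.93 and 3.54 FPKM in double-mutant tumors 26048 and 26050. Tumor 26044 was highest in Bbc3, as it was in Bax, and the other 3 were close. The difference was 0.31 (SE 0.41, adjusted p = 0.815, limma), and it was -0.078 without tumor 26044.

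Pmaip1 (chr18:66458604-66465558) encodes NOXA, the other BH3-only target, and had the lowest mean of the 10 genes in the triple-mutant tumors. It was at 1.86 FPKM in tumor 26043, 0.64 FPKM in tumor 26044, 5.13 FPKM in tumor 26048 and 1.71 FPKM in tumor 26050. Tumor 26048 was highest, 2.76-fold above the next, and tumor 26044 lowest, while tumors 26043 and 26050 were alike across the genotypes. The difference was -0.91 (SE 0.55, adjusted p = 0.625, limma), with a 95% interval from -2.38 to 0.56, and leaving out any tumor gave -1.50 to -0.32. The double-mutant tumors differed from each other by 1.18 log2 units, more than in 91.6% of genes.

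Zmat3 (chr3:32334794-32365665), a zinc finger protein that binds RNA and alters splicing, varied little over the tumors (1.34-fold from lowest to highest), as Ccng1 did (1.32-fold). Its FPKM was 5.30 and 3.95 in triple-mutant tumors 26043 and 26044, and 4.99 and 4.85 in double-mutant tumors 26048 and 26050. Both double-mutant values fell between the triple-mutant values. The difference was -0.084 (SE 0.32, adjusted p = 0.940, limma), with a 95% interval from -0.93 to 0.76, and it was 0.090 without tumor 26044. Its row overlaps that of 4930429B21Rik, and whether strand was used in the estimate is not given in the sources used here.

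Trp53inp1 (chr4:11156441-11174377) encodes a stress protein that promotes autophagy and cell death. It was at 4.68 and 3.34 FPKM in triple-mutant tumors 26043 and 26044, at 4.35 FPKM in double-mutant tumor 26048 and at 1.86 FPKM in double-mutant tumor 26050. Only tumor 26050 stood below the others, and the genotypes overlapped. The difference was 0.34 (SE 0.44, adjusted p = 0.810, limma), and it was -0.11 without tumor 26050.

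Phlda3 (chr1:135766085-135769134) encodes a small pleckstrin homology protein that competes with the kinase Akt for membrane lipids and so restrains it. It was at 180 FPKM in tumor 26043 and 297 FPKM in tumor 26044, both triple-mutant, and at 36.6 FPKM in tumor 26048 and 20.4 FPKM in tumor 26050, both double-mutant. Every triple-mutant value was above every double-mutant value, and the lower triple-mutant tumor was well clear of the higher double-mutant tumor. The means were 238 ± 83.0 and 28.5 ± 11.5 FPKM (SD, n = 2 each), a ratio of 8.37. The difference was 3.03 log2 units (SE 0.44, 95% interval 1.88 to 4.19), larger in size than that of 98.8% of the genes tested. Its p was 0.0014 before and 0.20 after adjustment over all genes (limma), so it did not pass the threshold.

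Leaving out any tumor gave a Phlda3 difference of 2.63 to 3.44. The deposited FPKM of Phlda3 lay above its own Cufflinks interval in every tumor, 1.67 to 1.99 times the midpoint. From the midpoints, which were 95.7, 149.6, 22.0 and 11.8 FPKM in tumors 26043, 26044, 26048 and 26050, the genotypes were still separate and the difference was 2.81. The 25 tested neighbours of Phlda3 had medians of -0.16, -0.30, 0.18 and 0.09 in these tumors, opposite in sign to those of Phlda3 itself (1.16, 1.88, -1.11 and -1.92).

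Most basal epithelial markers were higher in the triple-mutant pair, as Phlda3 was. Within that pair Phlda3 was higher in tumor 26044. There Krt5, Krt14 and Krt17 were lower, at 114, 42.5 and 155 FPKM against 596, 611 and 435 FPKM in tumor 26043. Trp63, Acta2, Oxtr and Myh11 were higher there. Of the 7 basal markers, 6 were higher in both triple-mutant tumors (21.3% of all genes tested) and 0 in both double-mutant tumors (22.9%). Their summed level was 1748 FPKM in tumor 26043 and 1279 FPKM in tumor 26044, against 69.4 FPKM in tumor 26048 and 47.3 FPKM in tumor 26050. No basal marker was listed at 0 in any tumor. Acta2, a smooth muscle actin and the marker with the highest mean, was at 64.8, 898, 59.7 and 31.8 FPKM in tumors 26043, 26044, 26048 and 26050. The summed level of tumor 26044 was thus mostly Acta2. The fibroblast markers had lower sums in the triple-mutant tumors, at 206 and 123 against 901 and 433 FPKM. The sums were mostly collagens. Col1a1, with the highest mean, was at 102 and 32.6 against 486 and 200 FPKM, 1.63 to 1.91 times its interval midpoint. Of the fibroblast markers, 4 of 8 were higher in both double-mutant tumors (22.9% of all genes tested). In both triple-mutant tumors 1 was higher (21.3%), Pdgfra, at 2.90 and 19.1 against 1.63 and 1.44 FPKM. Dcn, Pdgfrb and Fap overlapped. The part of basal or stromal cells in the Phlda3 difference was not tested.

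**Figure D2:**
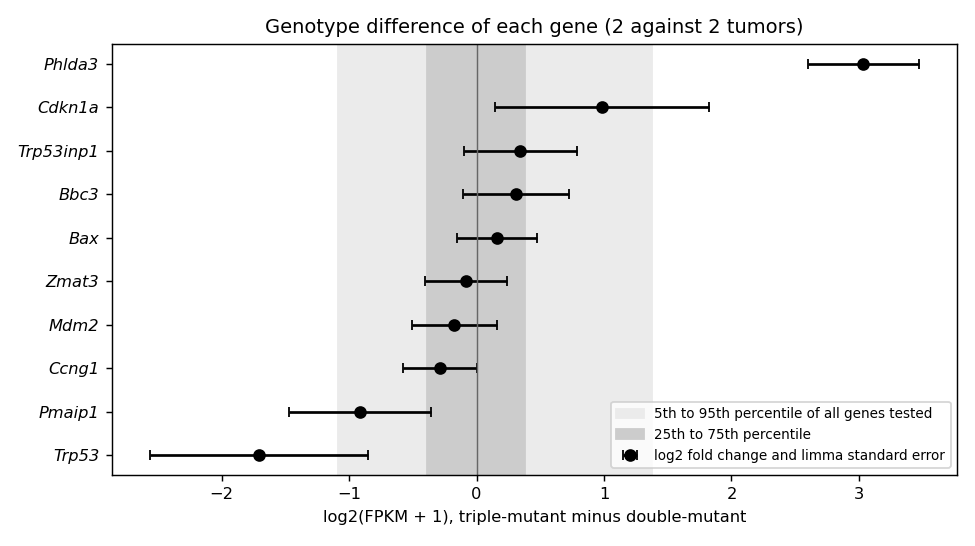
Log2 fold change in FPKM + 1, triple-mutant minus double-mutant, of each gene with its limma standard error as the bar (2 against 2 tumors), over bands that hold the middle of all 12752 genes tested. Phlda3 (3.03) and Trp53 (-1.70) lie outside the band from the 5th to the 95th percentile (-1.09 to 1.38), and Mdm2, Bax, Bbc3, Ccng1, Zmat3 and Trp53inp1 lie within the band from the 25th to the 75th (-0.39 to 0.38).

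The spread of the 10 genes over the 4 tumors was like that of other genes. Phlda3, Trp53, Cdkn1a and Pmaip1 spanned at least 1 log2 unit from the lowest to the highest tumor, 4 of 10 against 45.8% of all genes tested. The median span was 0.94 log2 units in the 10 genes and 0.93 in all genes. Of the 4 wide spans, that of Phlda3 lay between the genotypes, that of Cdkn1a came from tumor 26043 and that of Trp53 mostly from tumor 26043. The Pmaip1 span ran from triple-mutant tumor 26044 to double-mutant tumor 26048. Its gaps within the genotypes were 0.80 log2 units (triple-mutant) and 1.18 (double-mutant). In order of mean FPKM the triple-mutant tumors ran from Phlda3 (238) through Bax (109), Trp53 (51.7), Cdkn1a (25.1), Mdm2 (14.6), Ccng1 (8.69), Bbc3 (5.67), Zmat3 (4.63) and Trp53inp1 (4.01) to Pmaip1 (1.25). In the double-mutant tumors the order was Trp53 (126), Bax (95.9), Phlda3 (28.5), Mdm2 (16.7), Ccng1 (10.8), Cdkn1a (8.68), Zmat3 (4.92), Bbc3 (4.24), Pmaip1 (3.42) and Trp53inp1 (3.10). In the triple-mutant tumors the ranges of neighbours in this order overlapped from Trp53 to Mdm2 and from Bbc3 to Trp53inp1, and in the double-mutant tumors from Zmat3 to Trp53inp1. The order depended on the estimate: from interval midpoints the double-mutant mean of Mdm2 (20.01) was above that of Phlda3 (16.9), and Bbc3 (3.83 and 3.15) came after Trp53inp1 in the triple-mutant (4.01) and Pmaip1 in the double-mutant tumors (4.27).

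Of 28 further genes that p53 is known to activate, 26 passed the filter and were tested, all but Eda2r and Trp53cor1, and they too split. In 9 (34.6%) both triple-mutant tumors were higher, against 21.3% of all genes, and in 4 (15.4%) both double-mutant tumors were higher, against 22.9%. The median log2 fold change was 0.21, against -0.02 over all genes. None passed the adjusted threshold in limma, and 6 of 26 had an unadjusted p under 0.05, against 9.82% of all genes. By tumor, 8 of the 26 were highest and 2 lowest in tumor 26043 (27.9% and 15.2% of all genes), and 9 and 4 in tumor 26044 (24.2% and 39.0%). The counts were 5 and 7 in tumor 26048 (23.2% and 17.6%), and 4 and 13 in tumor 26050 (24.7% and 28.2%).

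Among the 9 higher in triple-mutant tumors, Perp, Sesn1 and Plk2 differed most. Perp, a membrane protein of desmosomes that p63 also activates in stratified epithelia, was at 288 and 315 FPKM in triple-mutant tumors 26043 and 26044 and at 16.3 and 25.4 FPKM in double-mutant tumors 26048 and 26050. Its genotypes lay further apart than those of Phlda3, by a ratio of means of 14.5 (3.82 log2 units, SE 0.32, adjusted p = 0.143, limma). The 10 tested neighbours of Perp were at 0.22, 0.86, -0.67 and -0.34 around their means in tumors 26043, 26044, 26048 and 26050. Plk2, a polo-like kinase, was at 89.6 and 70.1 FPKM in triple-mutant tumors 26043 and 26044 and at 32.7 and 26.5 FPKM in double-mutant tumors 26048 and 26050 (1.40, SE 0.29, adjusted p = 0.345, limma).

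Sesn1, a sestrin that damps mTORC1 after stress, was at 180 FPKM in tumor 26044 and at 12.0, 7.0 and 3.86 FPKM in tumors 26043, 26048 and 26050. The genotypes were separate, but the difference of 2.96 (SE 1.31, adjusted p = 0.540, limma) was 1.06 without tumor 26044. The 15 tested genes within 1 Mb were high in the same tumor, with a median of 2.49, against 3.38 for Sesn1 itself.

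Gadd45a, Btg2 and Rps27l led the 4 that were higher in double-mutant tumors. Gadd45a, a growth arrest gene of the DNA damage response, stood at 209 FPKM in double-mutant tumor 26048 and at 11.7, 13.7 and 18.2 FPKM in tumors 26043, 26044 and 26050. That tumor alone was high, its 5 tested neighbours had a median of 1.68 there, and the difference was -2.21 (SE 1.17, adjusted p = 0.587, limma), or -0.48 without it. Btg2, an antiproliferative gene, was at 7.38 and 5.55 FPKM in triple-mutant tumors and at 13.0 and 11.03 FPKM in double-mutant tumors (-0.81, adjusted p = 0.520, limma). The 24 tested genes within 1 Mb of Btg2 had a median difference of -0.42. Rps27l, a ribosomal protein that regulates Mdm2, was at 322 and 368 FPKM against 623 and 563 FPKM (-0.78, adjusted p = 0.494, limma), but it is nearly identical to Rps27 and its value is uncertain where reads matched both.

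**Figure D3:**
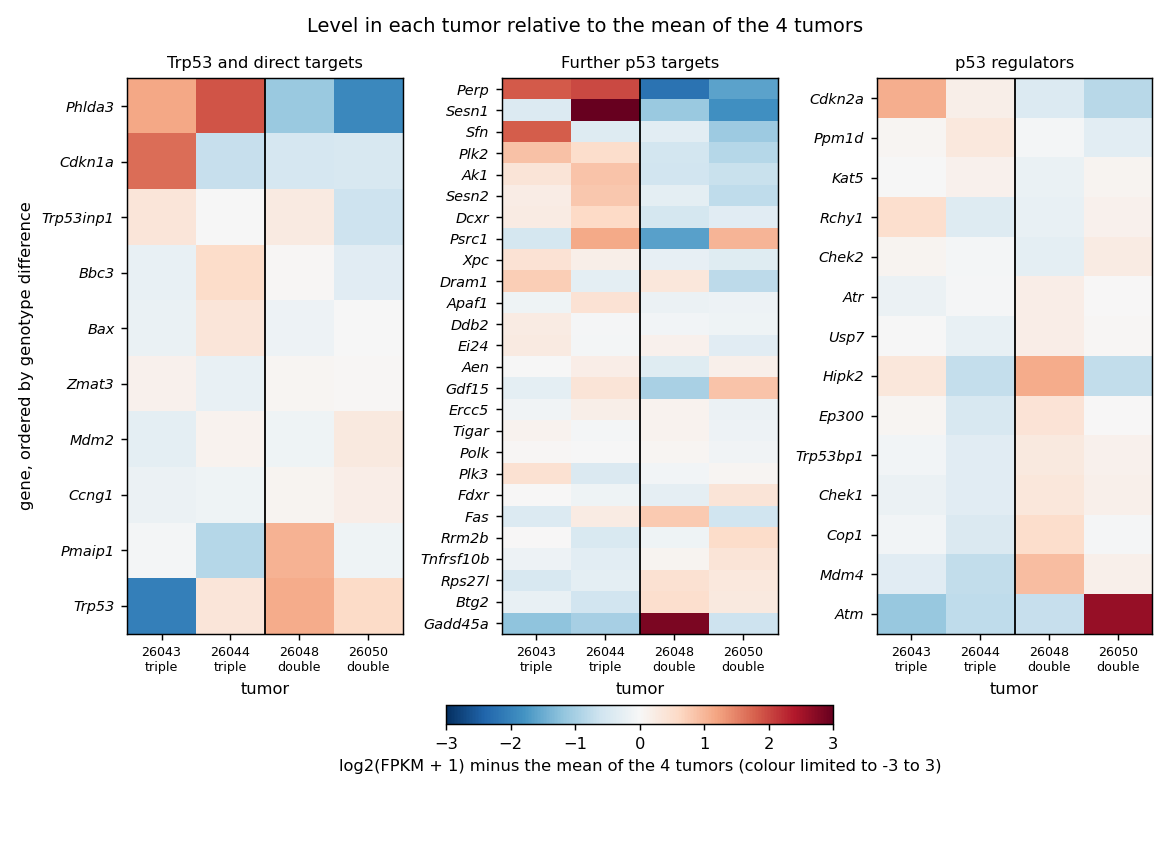
Log2(FPKM + 1) of each tested gene minus its mean over the 4 tumors, 1 column per tumor with triple-mutant left of the line, for the 10 genes, 26 further p53 targets and 14 regulators of p53. Color is limited to the range from -3 to 3, and single dark cells mark genes high in 1 tumor, such as Sesn1 in tumor 26044, Gadd45a in tumor 26048 and Atm in tumor 26050.

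All 14 regulators of p53 were tested. Both double-mutant tumors were higher in 7 of the 14 (Atm, Mdm4, Cop1, Chek1, Trp53bp1, Usp7 and Atr, against 22.9% of all genes) and both triple-mutant tumors in 2 (14.3%, against 21.3%), with a median of -0.30. The count of 7 was 4 from the interval midpoints and 5 after rescaling to TPM or with a filter of 5 FPKM. None passed the adjusted threshold in limma, and 1 of 14 had an unadjusted p under 0.05, against 9.82% of all genes. That gene was Cdkn2a, whose alternative product Arf holds Mdm2 away from p53, at 291 and 153 FPKM in triple-mutant tumors 26043 and 26044 and at 101 and 75.2 FPKM in double-mutant tumors 26048 and 26050. Its difference was 1.26 (SE 0.42, adjusted p = 0.485, limma), and the value does not separate Arf from the kinase inhibitor p16 of the same locus. Ppm1d, a phosphatase that dephosphorylates p53, was the other, at 7.14 and 8.72 against 6.51 and 5.27 FPKM (0.37, adjusted p = 0.712, limma).

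Toward the double-mutant side, Atm, the kinase that signals DNA breaks to p53, stood at 50.4 FPKM in tumor 26050 and at 2.81, 3.94 and 4.19 FPKM in tumors 26043, 26044 and 26048. It was high in a single tumor, as were its 6 tested neighbours with a median of 2.92 there, and the difference was -1.91 (SE 1.14, adjusted p = 0.619, limma), or -0.26 without it. Mdm4, the relative of Mdm2 that masks the activation domain of p53, was at 4.53 and 3.23 FPKM in triple-mutant tumors and at 12.3 and 6.81 FPKM in double-mutant tumors (-1.07, SE 0.41, adjusted p = 0.511, limma). Cop1, another ubiquitin ligase of p53, was at 16.0 and 12.2 against 24.9 and 16.5 FPKM (-0.51, adjusted p = 0.653, limma). From interval midpoints the genotypes overlapped in Cop1 and Atm, and stayed separate in Mdm4. The Cop1 midpoint was 24.4 FPKM in triple-mutant tumor 26043 and 22.9 FPKM in double-mutant tumor 26050, and its difference was -0.28. The Atm midpoint was 6.12 FPKM in triple-mutant tumor 26044 and 5.37 FPKM in double-mutant tumor 26048. The 2 triple-mutant tumors were thus lower in Trp53 and in the inhibitor Mdm4, without overlap, while Mdm2 overlapped. The tested genes within 1 Mb had lower values in triple-mutant tumors too. Their median difference was -0.43 around Mdm4 (18 genes) and -0.59 around Cop1 (6 genes). The part of the surrounding region in the Mdm4 and Cop1 differences was not tested.

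**Figure D4:**
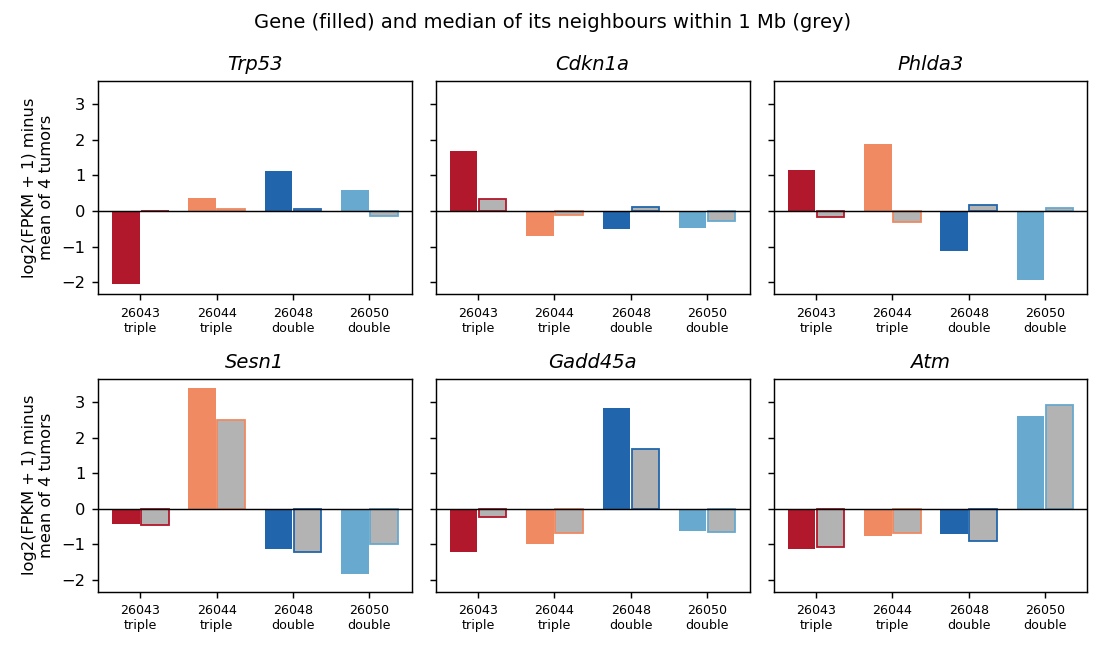
Log2(FPKM + 1) minus the mean of the 4 tumors for a gene (filled bars) and the median of its tested neighbours within 1 Mb (grey bars), by tumor. In the upper panels Trp53, Cdkn1a and Phlda3 departed from their neighbours, as with -2.06 against 0.00 for Trp53 in tumor 26043, and in the lower panels the neighbours of Sesn1, Gadd45a and Atm stood high in the same tumor as the gene (2.49, 1.68 and 2.92).

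The relatives of p53, which bind similar DNA elements, had higher values in the triple-mutant pair too. Trp63 was at 28.5 and 48.1 FPKM in triple-mutant tumors 26043 and 26044 and at 1.24 and 0.67 FPKM in double-mutant tumors 26048 and 26050 (4.30, SE 0.41, adjusted p = 0.143, limma). Trp73 was at 8.64 and 2.31 FPKM in the triple-mutant tumors and at 0.04 FPKM or listed at 0 in the double-mutant tumors (adjusted p = 0.396, limma). Both genes separated the genotypes in the direction of Phlda3 and Perp, and their part in those levels was not tested. Trp63 is itself among the basal markers above.

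The other deleted genes were read as a check of the labels. Tnfrsf11a, the gene of Rank, was at 2.07 and 0.96 FPKM in the triple-mutant and 10.6 and 11.9 FPKM in the double-mutant tumors (-2.32, adjusted p = 0.225, limma), lower where its allele was floxed. Brca1, floxed in both genotypes, was at 3.26 and 3.28 against 3.84 and 5.69 FPKM (-0.41, adjusted p = 0.702, limma). On the FPKM scale, which corrects for length, Trp53 was above Brca1 in every tumor, both being floxed in all 4.

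No luminal marker was under 1 FPKM in any tumor. Cldn3, the luminal marker with the highest mean FPKM, was at 107 to 1237 FPKM, or 107 to 413 FPKM at its interval midpoints. Tumor 26044 was low in the luminal list, with Epcam at 25.7 FPKM against 347 to 516 FPKM in the other tumors. Bax, Bbc3 and Phlda3 were highest and Cdkn1a, Pmaip1 and Zmat3 lowest in that tumor. Endothelial markers summed to 25.1 to 83.8 FPKM (Pecam1 highest), leukocyte markers to 48.2 to 88.4 FPKM (Cd68 highest), adipocyte markers to 7.58 to 1390 FPKM (Fabp4 highest) and skeletal muscle markers to 2.03 to 29.2 FPKM (Acta1 highest). The largest adipocyte sum was in tumor 26048, which was also highest in Trp53 and Pmaip1, and the largest muscle sum in tumor 26050, which was lowest in Phlda3, Bbc3 and Trp53inp1. The part of these cells, which keep p53, in the levels of the 10 genes was not tested.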

How the data were processed

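RNA of 4 primary mammary tumors was profiled, 2 per genotype, with groups and tumor numbers taken from the sample labels. The authors selected polyA RNA, made dUTP libraries, aligned single-end reads to mm10 with TopHat2 2.0.10 and Bowtie 0.12.9, and deposited gene-level FPKM with a confidence interval from Cufflinks 2.1.1. The builds and versions are from the submitters' processing notes. Options and annotation are not given in the sources used here. The authors also tested HTSeq counts with DESeq2 1.6.2, and these counts were not analysed here. FPKM needs a test on a log scale, so genes that reached 1 FPKM in 2 or more tumors (12752) were kept and their log2(FPKM + 1) entered a linear model in limma 3.58.1 under R 4.3.3 (eBayes with a trend, Benjamini-Hochberg threshold 0.05), after the script was tested on simulated data. The study calls the females littermates, but neither it nor the labels say which tumors form pairs, so no pairing was used.

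The 10 genes, the lists of further targets, regulators and cell type markers, and the tests were chosen with earlier results of these data known. Named were all 10 genes, the 3 tested genes with the largest change in each direction among separated genes of the target and regulator lists, the p53 family, the deleted genes, the marker with the highest mean of each list and markers a sentence needed, and the 3 genes most like Trp53. Regulators that fell short of this rule are named without values, as members of a count. Alternatives were a pseudocount of 0.1, no filter or 5 FPKM, rescaling to TPM, quantile normalization, no trend, status OK, the interval midpoint and leaving out each tumor. The interval half-width was 3.62% to 32.9% of the midpoint for the 10 genes. The deposited FPKM lay inside its own interval in all 4 tumors for 4 of them (Trp53, Cdkn1a, Zmat3 and Trp53inp1), and in 48.9% to 56.4% of the genes tested per tumor. Coordinates are 1-based. Tables were handled in Python 3.11.15 with numpy 2.4.6 and pandas 2.3.3, and figures drawn in matplotlib 3.10.9.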

Additional observations from a re-analysis of the deposited data

How the results depend on the processing

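None of the 10 genes passed the threshold under any of the 12 alternatives. The count over all genes, 0 in the reported fit, was 6 with quantile normalization, 5 without the trend and 1 from interval midpoints. Of 76 log2 fold changes of the 10 genes under the alternatives that kept all tumors, all 76 kept their direction, and Bbc3, Pmaip1, Zmat3 and Trp53inp1 had no value with the filter of 5 FPKM. From interval midpoints some kept little more than the sign: 0.009 for Bax, -0.029 for Mdm2 and -0.069 for Ccng1. Those of Trp53 (-1.71), Cdkn1a (0.99) and Phlda3 (2.81) changed less. Leaving out each tumor in turn, which leaves 1 tumor in a genotype and assumes that it varies like the others, kept the direction in 33 of 40 and reversed 7. The ranges were -2.91 to -0.50 for Trp53, -0.21 to 2.18 for Cdkn1a, -0.39 to 0.038 for Mdm2 (0.021 without tumor 26043), -0.12 to 0.44 for Bax, -0.078 to 0.70 for Bbc3, -1.50 to -0.32 for Pmaip1, -0.34 to -0.24 for Ccng1, -0.26 to 0.090 for Zmat3, -0.11 to 0.80 for Trp53inp1 and 2.63 to 3.44 for Phlda3. Of the 10 genes, the number higher in both double-mutant tumors, 2 as reported, was 4 with quantile normalization and 1 from midpoints, where Ccng1 overlapped. The regulators higher in double-mutant tumors numbered 7 as reported, 4 from midpoints and 5 after rescaling to TPM or with the filter of 5 FPKM.

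Leaving out tumors for these counts, and the alternatives for the named pathway genes, were added after seeing the data. With fewer tumors more genes separate by construction (30.8% to 40.2% of all genes toward triple-mutant and 31.9% to 45.1% toward double-mutant). The counts were then 1 to 4 of the 10 genes toward triple-mutant and 3 to 5 toward double-mutant, 12 to 16 and 4 to 7 of the further targets, and 3 to 4 and 7 to 9 of the regulators. The 15 named pathway genes kept their direction and stayed short of the threshold in all 117 values from fits that kept every tumor and in all 60 from fits that left 1 out. The differences of Sesn1 (1.06 to 4.86), Gadd45a (-3.93 to -0.48) and Atm (-3.57 to -0.26) depended most on the tumor left out. With 2 tumors a genotype and unknown depth, small differences were not detectable.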
